A study of Mus musculus with 18 samples.

Results

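The data described here are the transcriptomes of mouse embryonic stem (ES) cells labelled Eed KO before and after differentiation to embryoid bodies (EBs), which are 2 of the 18 samples of the series, with 1 RNA-seq library each. They were chosen by their labels, as the EB and the ES library of the same genotype, and all 29851 transcripts of the deposited table were compared. The study asked how methylation of lysine 27 of histone H3 by Polycomb bears on transcription and enhancers. All 4 libraries used in the comparisons came from E36 cells, an ES cell line of 129/Ola background, and the pair labelled wild type is given beside the Eed KO pair. ES cells grew in 15% serum with leukemia inhibitory factor. EBs of both genotypes were formed without that factor in hanging drops for 48 hours, received 0.5 µM all-trans retinoic acid from day 2 to day 5, and stayed in culture up to day 9. The genotype label of the cells says EED knock-out. No label gives the allele, the number of clones or the day on which the EBs were harvested.

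Eed is a core subunit of Polycomb repressive complex 2 (PRC2), which methylates lysine 27 of histone H3 and keeps developmental regulators silent in cells that do not need them. ES cells express a network of pluripotency factors, and they leave that state when leukemia inhibitory factor is withdrawn. EBs are aggregates in which cells of all germ layers can arise, and retinoic acid in this setting is known to induce HOX genes from the 3′ end of each cluster and to favour neural fates.

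Levels are FPKM (fragments counted per kilobase of transcript and relative to the depth of the library), as the authors deposited them, with 1 transcript per gene. Differences are EB minus ES on the log2(FPKM + 1) scale, which understates the change of weak genes. Expressed genes are those that reach an FPKM of 1 in any of the 4 E36 libraries. A gene is said to have risen or fallen where its difference is at least 1 in size, and other values carry no such verb. With 1 library per group there is no replicate spread, no error and no test for any value below. As a yardstick, 2 control ES libraries of different lines (E14 with a control hairpin against E36 wild type) differed by that much in 3.14% of 12747 genes upward and 5.65% downward.

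FPKM totals were 544166 in the ES library and 452782 in the EB library labelled Eed KO, and their sequencing depth relative to ES wild type was estimated at 1.18 and 0.793. Before the results, 3 measurements set the EB library labelled Eed KO apart. Trp53, which encodes the p53 tumour suppressor, was at 65.5 FPKM in the ES library and below 0.001 in the EB library, and its 2 transcripts summed to 76.2 and 0.157 FPKM, against 70.7 in wild-type EBs. The Y-linked genes Eif2s3y, Ddx3y and Uty were at 20.4, 4.52 and 2.17 FPKM in the ES library and at 0.0628, 0.126 and 0.0178 in the EB library, while wild-type EBs had 25.7, 10.2 and 4.7. Median differences per chromosome were taken over the 10130 genes with at least 5 FPKM in the higher library of the pair. Relative to the median of all these genes, the median was 0.35 for chromosome 3, 0.21 for chromosome 12, 0.17 for chromosome 6 and -0.13 for chromosome 11. It was 0.10 for the X chromosome and between -0.09 and 0.11 for the 15 other autosomes. In wild type the range over all chromosomes but Y was -0.14 to 0.18, so the values of chromosomes 6 and 11 lie within it and those of 3 and 12 outside. Whether the EB library came from the cells of the ES library was not tested, so each list median that crosses the size rule with ES wild type as the starting library is given with that value, beside the list or with the effects of processing.

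Eed mRNA did not separate the genotypes: it was at 77.8 FPKM in ES cells and 21.8 in EBs labelled Eed KO, against 72.3 and 25 in wild type. Without the position of the deletion these values do not check the label. The tissue label was checked against defining markers. The 4 markers of undifferentiated ES cells summed to 1282 FPKM in the ES library and 8.02 in the EB library, and the 4 fibroblast markers summed to 5.41 and 1093. In the EB library the 5 blood, 5 macrophage and 4 skeletal muscle markers summed to 0.567, 0.256 and 0.149 FPKM, with 2, 2 and 1 of them below 0.001, and the 6 endothelial markers to 3.23. The 4 neuron markers summed to 142 FPKM in the ES library and 6.39 in the EB library, against 155 and 380 in wild type. In whole EBs, fewer cells of a type and less RNA per cell cannot be told apart.

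Of 14772 expressed genes, 2913 (19.7%) rose and 2738 (18.5%) fell between the ES and the EB library labelled Eed KO, with a median difference of -0.03 over all expressed genes. In wild type 2855 (19.3%) rose and 2100 (14.2%) fell, with a median of 0.02. Differences of at least 3 in size were found for 265 named genes upward and 175 downward in the Eed KO pair. When the libraries were scaled to equal FPKM totals, the median of all genes moved to 0.18, with 3613 genes higher and 2038 lower, so the share of higher calls went from 51.5% to 63.9%. The plot of gene levels in the ES and EB libraries shows how far the pluripotency factors and the matrix genes lay from the rest.

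**Figure D1:**
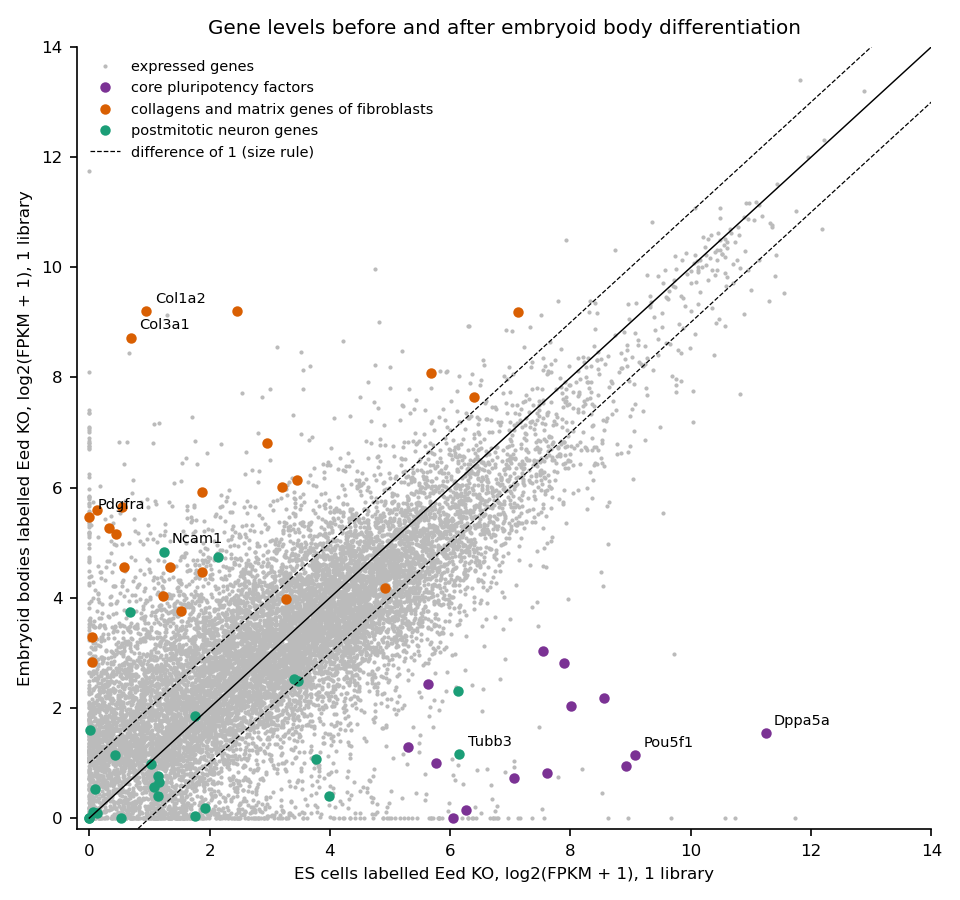
Level of each expressed gene in the ES library (horizontal) and the EB library (vertical) labelled Eed KO, on the log2(FPKM + 1) scale, with 1 library on each axis. Points are genes, the solid line marks equal levels and the dashed lines a difference of 1. All 14 core pluripotency factors lie below the lower dashed line and 22 of 24 fibroblast matrix genes above the upper one.

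The promoters of 4 genes at the extremes of the comparison are shown first, because collagen genes rose together and pluripotency genes fell together. They are the first promoter that RefSeq lists for each gene on build GRCm38.p6, from 250 bases before the start to 50 after it, written along the strand of the gene. Capitals mark matches on either strand to the motifs searched. These were TATAAA for the TATA box, ATGCAAAT for the octamer, AGATAA for the motif of GATA factors, CCAAT for the box of that name, CACGTG for the E box and GGGCGG for the GC box.
Col1a2 (chr6:4505368-4505667, + strand): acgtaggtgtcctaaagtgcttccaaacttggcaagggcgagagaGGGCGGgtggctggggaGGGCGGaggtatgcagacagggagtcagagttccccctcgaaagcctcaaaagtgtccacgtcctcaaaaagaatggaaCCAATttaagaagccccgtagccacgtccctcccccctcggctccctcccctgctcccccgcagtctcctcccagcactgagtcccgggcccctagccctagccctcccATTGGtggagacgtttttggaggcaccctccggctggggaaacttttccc
Col3a1 (chr1:45311288-45311587, + strand): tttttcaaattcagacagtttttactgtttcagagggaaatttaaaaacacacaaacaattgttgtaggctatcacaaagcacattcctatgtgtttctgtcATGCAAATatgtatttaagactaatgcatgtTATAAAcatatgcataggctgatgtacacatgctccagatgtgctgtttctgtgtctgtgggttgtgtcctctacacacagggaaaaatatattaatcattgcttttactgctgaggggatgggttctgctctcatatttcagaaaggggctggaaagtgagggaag
Tdgf1 (chr9:110946109-110946408, - strand): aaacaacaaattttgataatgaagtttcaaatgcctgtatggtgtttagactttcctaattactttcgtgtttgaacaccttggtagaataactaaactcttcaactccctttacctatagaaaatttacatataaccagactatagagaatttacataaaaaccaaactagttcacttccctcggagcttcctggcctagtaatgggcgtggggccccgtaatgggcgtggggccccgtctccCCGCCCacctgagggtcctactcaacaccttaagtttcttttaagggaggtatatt
Pou5f1 (chr17:35505782-35506081, + strand): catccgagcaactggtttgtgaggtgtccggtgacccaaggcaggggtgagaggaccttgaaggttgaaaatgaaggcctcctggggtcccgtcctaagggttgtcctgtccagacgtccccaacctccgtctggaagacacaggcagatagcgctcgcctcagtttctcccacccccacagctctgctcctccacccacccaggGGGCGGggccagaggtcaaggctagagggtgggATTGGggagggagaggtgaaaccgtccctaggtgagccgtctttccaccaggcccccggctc
The window of Col3a1 held no CpG, an octamer and a TATA box, while that of Col1a2 held 13 CpGs, 2 GC boxes and 2 CCAAT boxes. Tdgf1 had 7 CpGs and Pou5f1 had 11, each with a GC box. Over the 11204 expressed genes with an entry, a GC box was found in 64.7% of promoters, in 66.4% of the 2130 of genes that rose and in 60.1% of the 2084 of genes that fell. TATA boxes were found in 7.29%, 7.61% and 9.64%, and CCAAT boxes in 39.6%, 37.3% and 43.4%. Octamers were found in 1.57%, 1.64% and 2.21%, GATA motifs in 6.17%, 5.31% and 7.05% and E boxes in 10.2%, 9.06% and 11.9%. The median number of CpGs was 21 over all, 20 for genes that rose and 19 for genes that fell. These shares were not tested against each other, and a match is a description of sequence only.

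Genes of the extracellular matrix led the increases. Col1a2 (NM_007743, mm9 chr6:4455697-4491543) and Col1a1, the chains of type I collagen, went from 0.929 to 589 FPKM and from 4.45 to 587 FPKM, differences of 8.26 and 6.75. Col3a1 (NM_009930, mm9 chr1:45368383-45406551), the chain of type III collagen, went from 0.608 to 421 FPKM, a difference of 8.03. In wild type Col1a2 was higher in ES cells and lower in EBs, at 7.37 to 138 FPKM, so its difference of 4.05 was smaller, while Col3a1 reached 289 FPKM with a difference of 7.51. The microfibril genes Mfap2 and Mfap4 went from below 0.001 to 136 and from 1.24 to 144 FPKM, and Col8a2, a type VIII collagen chain, from 0.54 to 112 FPKM against 0.942 to 6.79 in wild type. The values of Mfap2 are those of 1 of its 2 transcripts. Mgp, an inhibitor of calcification in matrix, went from 0.134 to 64.5 FPKM.

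Growth factor, membrane protein and transcription factor genes made up the other leading increases. Dlk1, an imprinted gene for a Notch-like membrane protein, went from 1.44 to 563 FPKM (7.85), against 1.41 to 58.9 in wild type. Ptn, which encodes the heparin-binding growth factor pleiotrophin, went from 0.586 to 348 FPKM, and Igfbp5, a binding protein of insulin-like growth factors, from 1.1 to 142 FPKM. Igfbp5 and Gas1, a hedgehog co-receptor, moved almost alike in both pairs, with differences of 6.09 and 6.02 and of 5.75 and 5.54. Vcam1, a cell adhesion molecule, went from 0.0409 to 52.5 FPKM, the neighbouring genes Tmem176a and Tmem176b from 0.492 to 85.1 and from 0.41 to 112, and Fos, an immediate early transcription factor, from 2.28 to 155. All 15 genes with the largest increases also rose in wild type.

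The largest decrease was that of Dppa5a (NM_025274, mm9 chr9:78214861-78216006), an RNA-binding protein gene of pluripotent cells, from 2423 to 1.92 FPKM (-9.70). Wild-type EBs held more of it, at 118 FPKM after 1315 in ES cells. Dnmt3l, the cofactor of de novo DNA methylation, fell from 367 to 0.372 FPKM, Tdgf1, the Nodal co-receptor, from 485 to 0.936 and Pou5f1, which encodes Oct4, from 540.1 to 1.21. The remaining large decreases included Lefty2, an inhibitor of Nodal, from 184 to 0.122, Upp1, a uridine phosphorylase, from 289.9 to 0.863, Trh, a hormone precursor, from 222 to 0.684, Mt2, a metallothionein, from 846 to 6.92, and Fam25c from 102 to 0.264 FPKM. All 15 genes of this end also fell in wild type, and each by less than in the Eed KO pair. They were chosen by their Eed KO difference, so a smaller wild-type difference follows in part from that choice.

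All 14 core pluripotency factors fell, against 18.5% of all genes, with a median difference of -6.08. Their summed level went from 5115 to 32.3 FPKM, and in wild type from 4005 to 263 FPKM, where all 14 fell too with a median of -4.29. Nanog went from 256 to 3.1 FPKM and Sox2, which neural progenitors also express, from 186 to 7.14. The wild-type EBs held 12.8 FPKM of Nanog and 52.6 of Sox2, so the EB library labelled Eed KO was the lower of the EB libraries for both, and for 12 of the 14 factors the difference was more negative in the Eed KO pair. Among 14 naive pluripotency factors 13 fell, with a median of -4.22. Esrrb went from 108 to 0.158 FPKM, Dppa3 from 90.6 to 0.0625, Fbxo15 from 101 to 0.51, and Tcl1 was at 57.1 in ES cells and listed at 0 in EBs. Tbx3, which is also active in mesoderm, was the one that did not pass, at 13.2 to 22.1 FPKM. Of 7 expressed Nodal pathway genes 6 fell, among them the ligand Nodal from 25.3 to 0.284 FPKM, its inhibitors Lefty1 from 96.3 to 0.847 and Lefty2, and the transcriptional cofactor Foxh1 from 47 to 0.251. The receptor gene Acvr2b was at 9.83 to 7.21 FPKM and did not pass.

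Genes that mark the step after the naive state did not move together. Of 9 expressed primed epiblast genes 2 rose and 4 fell, with a median of -0.64, which was -1.87 with ES wild type as the starting library. Cdh2, which encodes N-cadherin, rose from 3.33 to 27.3 FPKM and Fzd2, a Wnt receptor gene, from 4.21 to 37.2, whereas Dnmt3b fell from 36 to 1.25 and Otx2 from 33.5 to 4.95. Of 6 expressed primitive streak genes, the organizer gene Gsc rose from 0.989 to 9.24 FPKM, Foxa2 from 0.258 to 3.04 and Lhx1 from 0.182 to 1.4, and Eomes fell from 4.31 to 0.459. T, the gene for Brachyury, was at 1.36 to 0.183 FPKM, just short of the size rule. The 2-cell-like genes, which a small fraction of ES cells express, fell for 6 of 7, such as Zscan4f from 12.8 to 0.0825 FPKM, and all 7 fell in wild type.

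**Figure D2:**
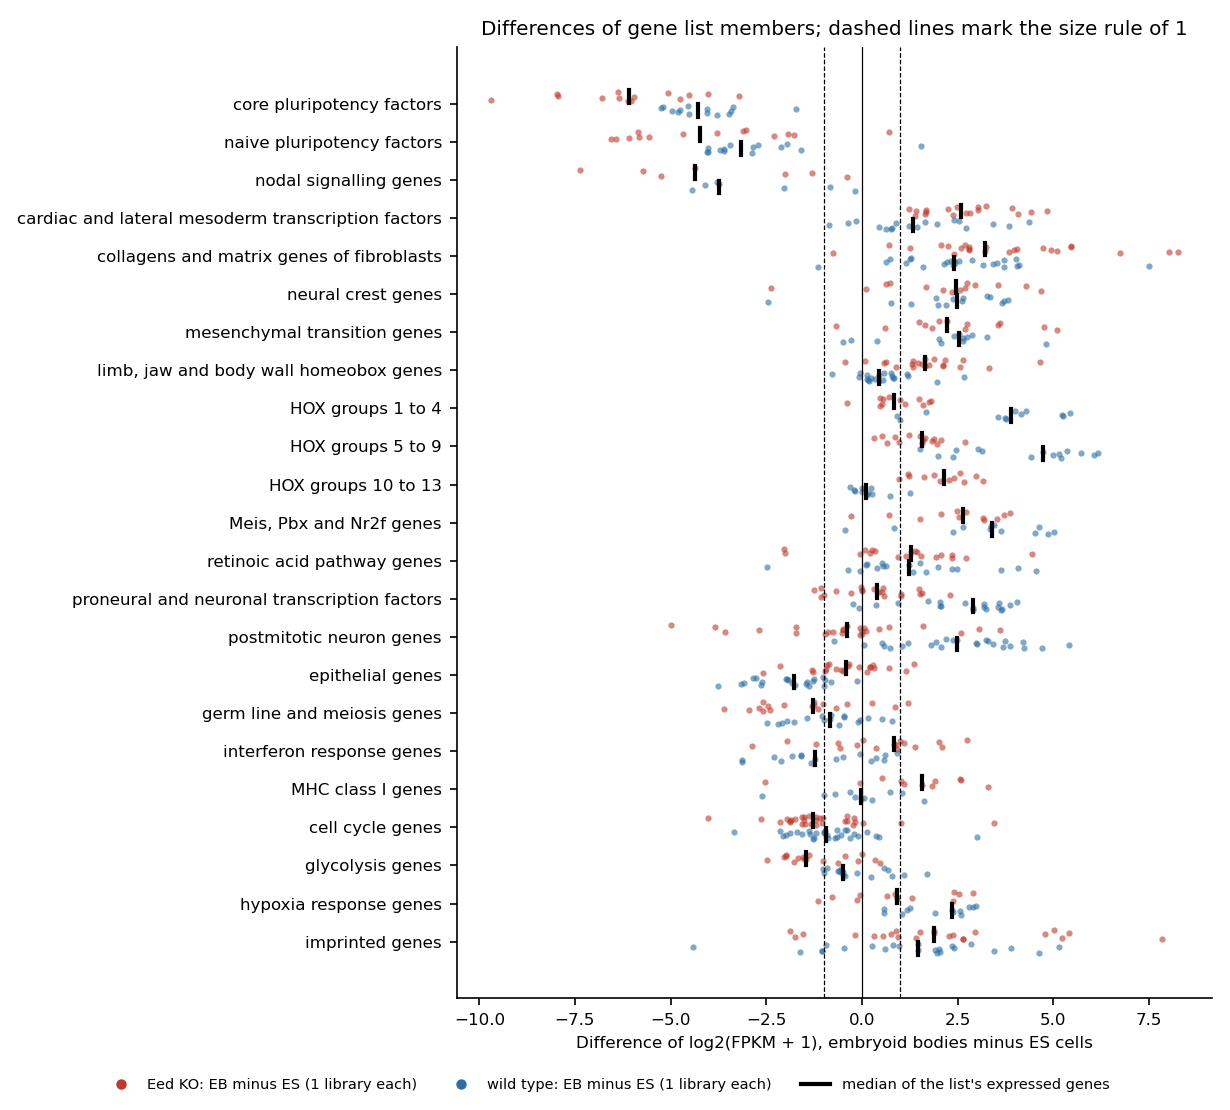
Difference of log2(FPKM + 1), EBs minus ES cells, for the expressed members of 23 gene lists (rows) in the Eed KO pair (red) and the wild-type pair (blue), each from 1 library per stage. Points are genes, black bars list medians and dashed lines the size rule of 1. HOX groups 10 to 13, neuron, MHC class I and glycolysis genes have medians of 2.15, -0.38, 1.58 and -1.45 in the Eed KO pair and 0.10, 2.48, -0.02 and -0.49 in wild type.

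Transcription factors of the heart and of lateral mesoderm rose without exception: all 18 expressed members passed, against 19.7% of all genes, with a median of 2.60. In wild type 10 of the 18 rose, with a median of 1.34. Hand2, a factor of heart and limb mesoderm, went from 0.939 to 54.5 FPKM (4.84), and the cardiac and endodermal factors Gata6 and Gata4 from 1.51 to 52.6 and from 2.65 to 24.8. Foxf1, a factor of splanchnic mesoderm, went from 0.867 to 30.6 FPKM, where wild type moved from 0.308 to 1.25. Tbx20 and Nkx2-5, cardiac factors, rose from 1.75 to 14.3 and from 3.36 to 9.31 FPKM, while in wild type they were at 1.16 to 0.927 and 0.65 to 0.276. Hand1, found in extraembryonic and lateral mesoderm and in trophoblast, rose from 18.4 to 51.2 FPKM against 2.26 to 0.782 in wild type.

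Contractile genes gave a divided picture. The smooth muscle genes Acta2, Myl9, Tagln and Actg2 rose from 21.7 to 199, from 28.9 to 139, from 39.1 to 163 and from 0.353 to 12.2 FPKM, and Tnni1, a slow skeletal and embryonic cardiac troponin, from below 0.001 to 19.8. The values of Tnni1 are those of 1 of its 2 transcripts. The atrial myosin light chain Myl7 fell from 19.3 to 1.23 FPKM and the ventricular Myl3 from 2.43 to 0.421, and Myh6, the atrial heavy chain, was at 0.997 to 0.0336. In all, 8 of 16 expressed members rose and 3 fell, with a median of 0.88. That median was 1.62 with an FPKM of 1 required in 1 of the 2 libraries compared, and 2.03 with an FPKM minimum of 5. The smooth muscle genes Cnn1 and Myh11 stayed within the size rule, at 3.5 to 3.53 and 0.342 to 0.657 FPKM.

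Matrix genes of fibroblasts rose for 22 of 24, with a median of 3.23, and for 21 in wild type, with a median of 2.42. Pdgfra, the growth factor receptor of mesenchyme, went from below 0.001 to 43.2 FPKM, Postn, which encodes periostin, from 0.0898 to 47.2, and the proteoglycan gene Dcn from 0.258 to 37.7. The values of Pdgfra are those of 1 of its 2 transcripts. Thy1 at 8.64 to 14.7 FPKM and Ccn2 at 29.3 to 17 did not pass. Of 13 expressed mesenchymal transition genes 11 rose, with a median of 2.22, against 10 and a median of 2.53 in wild type. Among them Cdh11 rose from 2.39 to 115 FPKM, Mmp2 from 6.34 to 199, and the transcription factors Snai2 and Twist2 from 1.2 to 24.8 and from 0.696 to 19.9. Neural crest genes, many of which facial and limb mesenchyme share, rose for 10 of 14, as for Prrx1 from 0.21 to 22.7 FPKM. In wild type 12 of the 14 crest genes rose, and the medians were 2.47 in the Eed KO pair and 2.50 in wild type. In contrast Foxd3, which ES cells use too, fell from 15.7 to 2.2 FPKM, and the early crest gene Ednrb was at 0.0249 to 0.11 FPKM against 0.118 to 13.3 in wild type. Of 9 expressed cartilage and bone genes 5 rose, Col11a1 from 1.67 to 66.7 and Col2a1 from 0.70 to 15.6 FPKM among them, and 3 fell, with Spp1, which encodes osteopontin, from 177 to 2.16.

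Basement membrane genes rose for 5 of 11 expressed members, with Col4a5 and Col4a6, paired type IV collagen genes on the X chromosome, from 0.305 to 21 and from 0.0464 to 10.4 FPKM. Lama5, a laminin chain, stayed within the size rule at 29.9 to 40.1 FPKM, while in wild type it fell from 35 to 8.04. Homeobox and T-box genes of limb, jaw and body wall rose for 16 of 21 expressed members with none lower, against 4 of 21 in wild type. Pitx1, a hindlimb factor, went from 1.14 to 52.8 FPKM in the Eed KO pair and from 0.0389 to 1.39 in wild type. Barx1, a factor of jaw and stomach mesenchyme, went from 6.32 to 42.6 FPKM against 0.558 to 0.759, and Alx4 from 0.129 to 10.3 against 0.128 to 3.44. Members such as Barx1 count as expressed only through the Eed KO libraries, so the low wild-type count follows in part from the filter. Tbx4, another hindlimb gene, was listed at 0 in the ES library and at 2.68 FPKM in the EB library. Mesothelial and urogenital genes rose for 8 of 12, such as Upk3b from 0.479 to 19.1 and Wt1 from 4.05 to 29.5 FPKM, both within the size rule in wild type at 0.518 to 0.524 and 8.03 to 6.69.

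HOX genes, which encode position along the body axis, separated the pairs by their place in the clusters. In groups 1 to 4, at the 3′ end, 5 of 12 genes rose with a median difference of 0.85 (1.63 with ES wild type as the starting library), against 10 of 12 and a median of 3.89 in wild type. In groups 5 to 9, 10 of 15 rose with a median of 1.58, against 15 of 15 and 4.73. In groups 10 to 13, at the 5′ end, 11 of 12 rose with a median of 2.15, against 1 of 12 and 0.10. Apart from Hoxb13, at 1.54 FPKM in wild-type EBs, the genes of groups 10 to 13 stayed below 1 FPKM in both wild-type libraries. They count as expressed only through the Eed KO libraries, so the low wild-type count and median follow in part from the filter. No HOX gene fell in the Eed KO pair.

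The summed levels show the same order. Groups 1 to 4 went from 12.8 to 36.9 FPKM in the Eed KO pair and from 3.35 to 241 in wild type. Groups 10 to 13 went from 28.8 to 193 FPKM in the Eed KO pair and from 1.61 to 3.74 in wild type. The ES library labelled Eed KO thus already had a higher summed level of groups 10 to 13 than wild-type EBs. Among single genes, Hoxd13 went from 8.8 to 57.3 FPKM, Hoxa10 from 4.59 to 34.8 and Hoxa13 from 1.53 to 21.7, while in wild type they were at 0.79 to 0.435, 0.0223 to 0.688 and 0.0539 to 0.263. Of the 3′ genes, Hoxb2 went from 0.624 to 4.51 FPKM against 0.392 to 52.6 in wild type, and Hoxc4 from 1.36 to 2.44 against 0.0442 to 44.4. Hoxb1, the most 3′ gene of its cluster, was at 0.462 to 0.115 FPKM. In group 9, Hoxa9 went from 1.48 to 15 FPKM against 0.0214 to 3.06 in wild type and Hoxc9 from 1.09 to 4.97 against 0.0811 to 4.93, while Hoxb9 reached 10.2 FPKM in EBs labelled Eed KO and 82.1 in wild-type EBs. By cluster 8 of 11 genes of cluster A, 7 of 10 of B, 5 of 9 of C and 6 of 9 of D rose in the Eed KO pair. Cofactors and companions of HOX proteins rose in both pairs, for 10 of 12 Meis, Pbx, Tshz and Nr2f genes in each, such as Meis1 from 1.96 to 26.1 FPKM and Nr2f1 from 0.71 to 14.3.

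**Figure D3:**
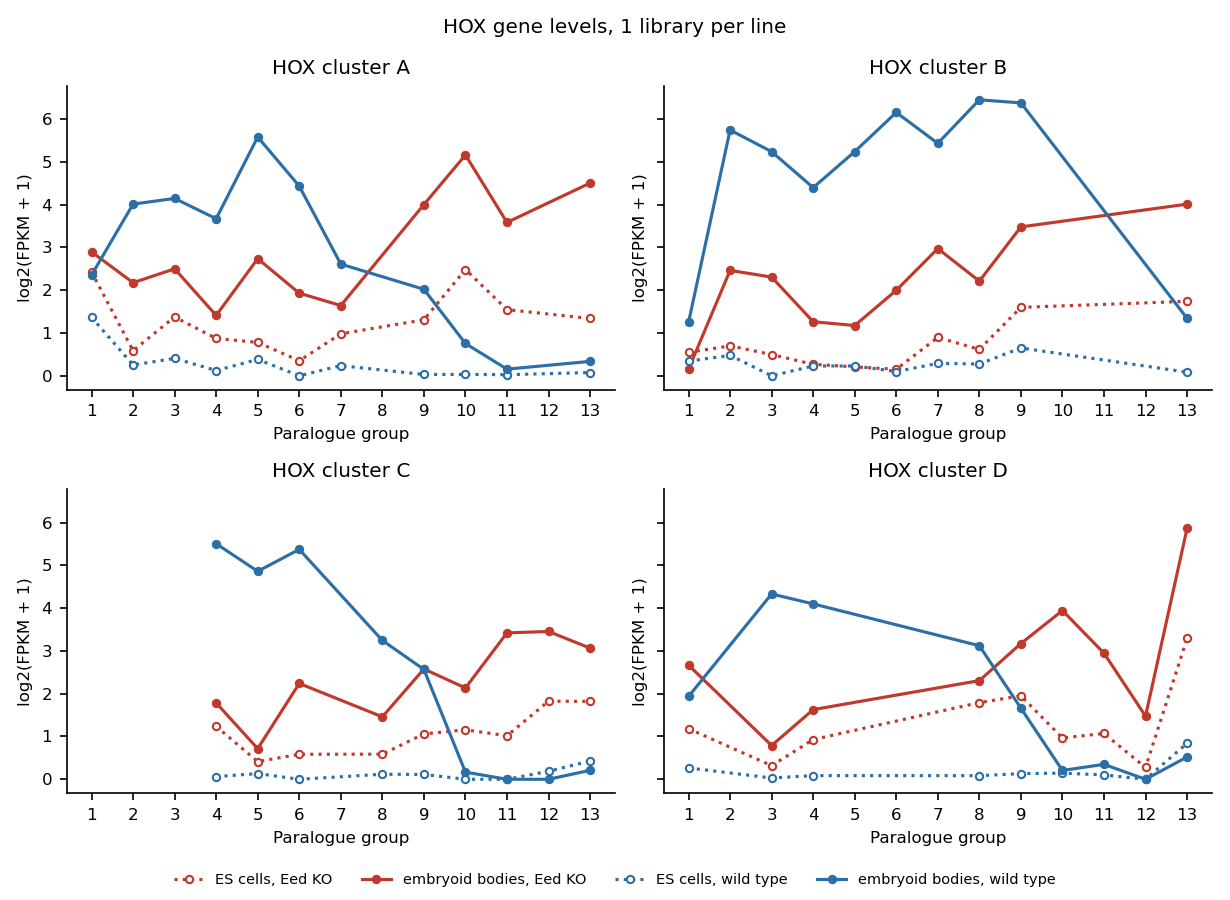
Level of each HOX gene, log2(FPKM + 1), by paralogue group (horizontal) in clusters A to D, in ES cells (open symbols, dotted) and EBs (filled, solid) labelled Eed KO (red) and wild type (blue), with 1 library per line. In EBs the blue line is the higher one for most of groups 2 to 8 and the red line for groups 10 to 13, where wild-type EBs reach at most 1.54 FPKM and EBs labelled Eed KO 57.3 FPKM.

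Genes of the retinoic acid pathway rose to a like count in both pairs. Rarb, the receptor gene that retinoic acid induces, went from 0.285 to 27.3 FPKM in the Eed KO pair and from 0.127 to 18.1 in wild type. Of 19 expressed genes of the pathway 11 rose and 2 fell, against 10 and 1 in wild type. The degrading enzymes Cyp26b1 and Cyp26a1 rose from 0.425 to 4.95 and from 0.794 to 3.0 FPKM, the reductase Dhrs3 from 0.873 to 8.57, and the synthesizing enzymes Aldh1a1 and Aldh1a2 from 0.0849 to 6.22 and from 0.951 to 9.04. The binding proteins Crabp1 and Crabp2 rose from 27.6 to 108 and from 21.5 to 64.6 FPKM, short of wild-type EBs, which held 382 and 143. Rarg, the receptor gene with the highest level in the ES library, fell from 44.4 to 10.2 FPKM, and Stra8, a germ cell gene that retinoic acid induces, fell from 4.13 to 0.241.

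Nervous system genes, which rose in wild type, did not rise together in the Eed KO pair. Genes near 0 in both Eed KO libraries, such as Map2 and Dcx, count as expressed through their wild-type level. Of 25 genes of postmitotic neurons 4 rose and 6 fell, with a median of -0.38, while 20 rose and none fell in wild type, with a median of 2.48. Tubb3, a beta-tubulin gene of neurons, fell from 70.2 to 1.23 FPKM (-5.0) in the Eed KO pair and rose from 62.4 to 290.2 in wild type (2.20). Stmn2, a tubulin-binding protein gene of neurons, went from 69.3 to 3.92 FPKM, against 88.5 to 53.5 in wild type, and Ina, a neuronal intermediate filament gene, from 14.8 to 0.317 against 39.4 to 41.3. Tubb3, Stmn2 and Ina were thus present in ES cells of both labels, and of the 4 libraries the EB library labelled Eed KO held the least of each. Map2 was listed at 0 in both Eed KO libraries and at 41.8 FPKM in wild-type EBs, and the migrating-neuron gene Dcx was below 0.001 in both and at 17.8 FPKM in wild-type EBs. The 4 that rose were the adhesion gene Ncam1, from 1.36 to 27.6 FPKM, Nsg1, from 0.602 to 12.4, Dpysl3, from 3.41 to 25.8, and the synaptic vesicle gene Syt1, from 0.00342 to 2.04.

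Factors that specify neurons rose less often than in wild type. Of 20 expressed proneural and neuronal transcription factor genes 6 rose and 3 fell, beside 19.7% and 18.5% of all genes. In wild type 16 rose and none fell, and the median was 2.91 rather than 0.39. The summed level of the list went from 15.4 to 31.4 FPKM in the Eed KO pair and from 13.8 to 200 in wild type. Neurog1 fell from 2.33 to 0.402 FPKM while it rose from 0.427 to 8.22 in wild type, and Atoh1, a factor of hindbrain and sensory progenitors, fell from 1.3 to 0.0962 while it rose from 0.302 to 15.3. Pou4f1, a sensory neuron factor, fell from 1.29 to 0.102 and rose from 1.96 to 11.2 FPKM in wild type. Ebf3 and Lhx2, which other tissues use as well, rose from 0.101 to 4.47 and from 1.87 to 7.6 FPKM.

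Of 21 neural progenitor genes 9 rose and 5 fell, against 13 and 1 in wild type. Their median was 0.06, against 1.45 in wild type. The Eed KO median was 1.19 when an FPKM of 1 was required in 1 of the 2 libraries compared. Zic1, a dorsal neural and mesodermal factor, rose from 1.2 to 18.3 FPKM and Sox11, a factor of neural progenitors and young neurons, from 3.73 to 35.7, against 61.7 and 79.2 in wild-type EBs. Fabp7, a radial glia gene, was at 0.338 FPKM in the ES library, listed at 0 in the EB library and at 162 in wild-type EBs. Wnt1, a midbrain signal, was at 0.0921 FPKM in the EB library, against 34.5 in wild type. Dll1 and Dll3, Notch ligands of neural and somite progenitors, fell from 1.92 to 0.308 and from 3.17 to 0.748 FPKM while they rose from 2.73 to 11.8 and from 4.14 to 12.3 in wild type. Pax6 rose from 0.887 to 3.62 FPKM, but was at 4.05 in wild-type ES cells. The floor plate and pancreas gene Nkx6-1 rose from 0.123 to 3.04 FPKM, while wild type stayed at 0.0271 to 0.139.

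**Figure D4:**
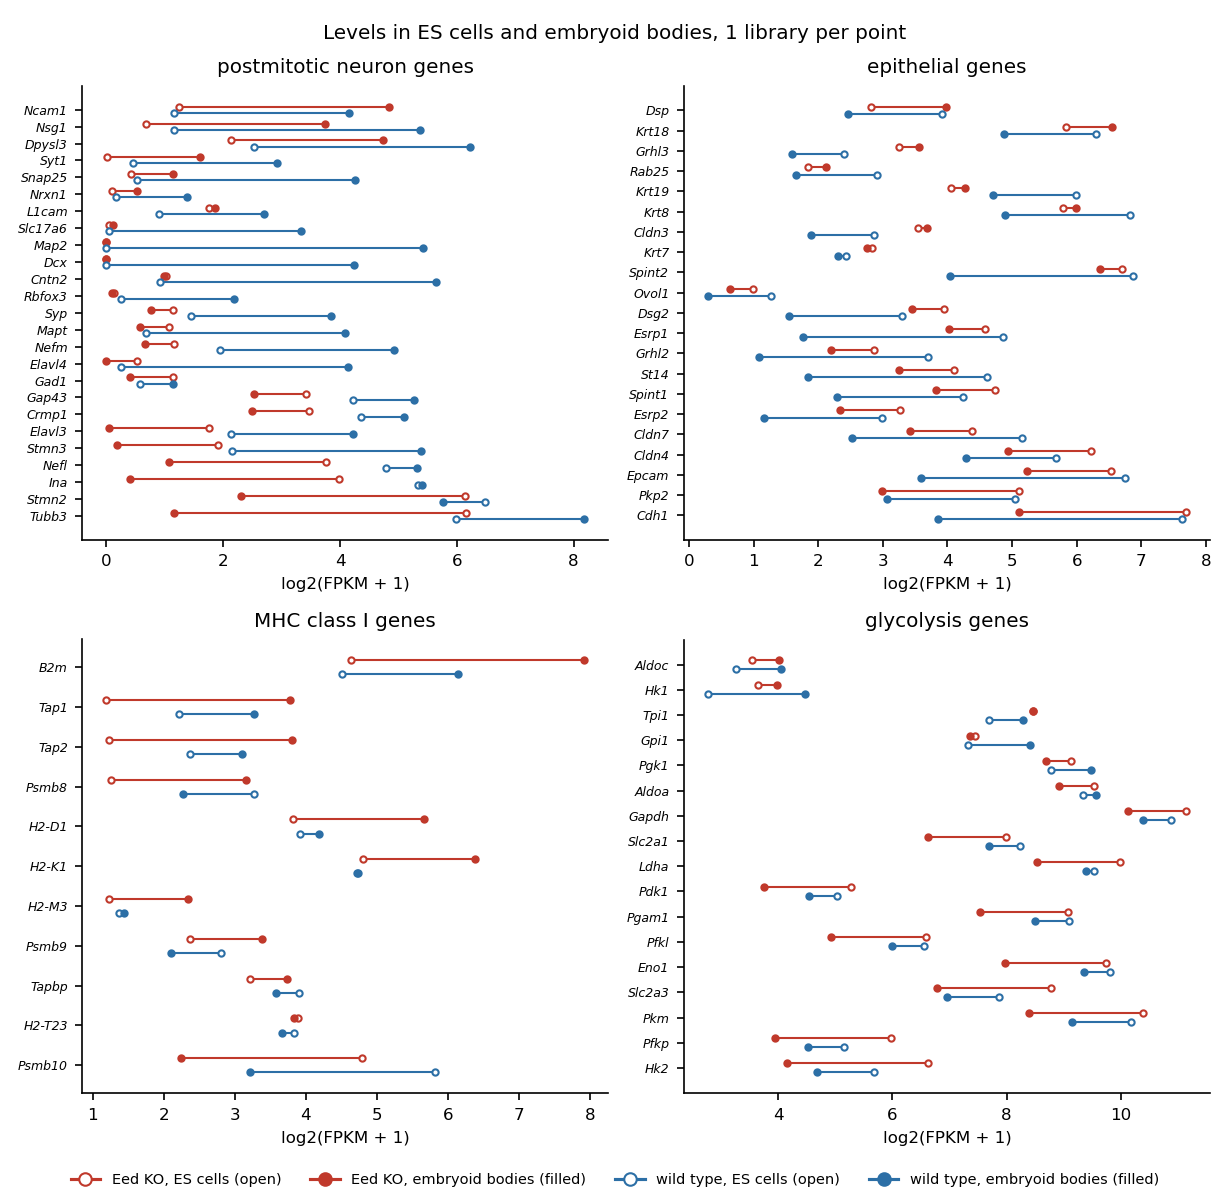
Levels of expressed members of 4 gene lists, log2(FPKM + 1), in ES cells (open) and EBs (filled) labelled Eed KO (red) and wild type (blue), with 1 library per point and a line joining the stages of a genotype. Median differences of the whole lists in the Eed KO and wild-type pairs were -0.38 and 2.48 for neuron genes, -0.42 and -1.78 for epithelial genes, 1.58 and -0.02 for MHC class I genes and -1.45 and -0.49 for glycolysis genes.

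BMP and TGF-beta genes rose for 16 of 21 with none lower, against 13 and none in wild type, among them Tgfb3 from 0.453 to 18.6 FPKM, Tgfb2 from 1.96 to 25.8, the TGF-beta target Tgfbi from 5.55 to 78.8, and the BMP antagonists Grem1 and Nog from 0.131 to 7.67 and from 0.784 to 8.57. Wnt pathway genes rose for 15 of 21, against 14 in wild type, with the antagonists Dkk2 and Dkk3 from 0.144 to 19.6 and from 1.52 to 31.5 FPKM and the ligand Wnt2b from 0.348 to 10.3, and Sfrp5 alone fell, from 1.98 to 0.128. Insulin-like growth factor genes rose for 7 of 10 in each pair, Igf2 from 25.9 to 1003 FPKM and Igfbp4 from 11.8 to 295 among them. FGF genes did not rise together: 4 of 19 rose and 7 fell, beside 19.7% and 18.5% of all genes. Their median was -0.46, within the size rule, and in wild type 3 rose and 7 fell. The ligand Fgf4 fell from 61.6 to 0.0947 FPKM, and the FGF-induced genes Etv5, Etv4 and Spry4 from 112 to 4.78, from 29.6 to 1.48 and from 30 to 3.46, whereas the receptors Fgfr2 and Fgfr3 rose from 1.51 to 19.3 and from 0.363 to 6.93. Fgf15 fell from 8.11 to 1.22 FPKM while it rose from 8.47 to 28.4 in wild type.

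Notch and hedgehog genes gave smaller counts, where 19.7% of all genes rose and 18.5% fell. Of 15 expressed Notch genes 6 rose and 3 fell, Hey1 rising from 3.27 to 17.6 FPKM and Notch4, an endothelial receptor gene, falling from 4.09 to 0.0708. Of 8 hedgehog genes 3 rose and 1 fell. The ligand Shh rose from 0.0432 to 4.69 FPKM, and the pathway target Gli1 was at 7.11 to 9.58 FPKM in the Eed KO pair while it fell from 20.3 to 1.88 in wild type.

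Epithelial genes mostly stayed within the size rule in the Eed KO pair. Of 22 genes 2 rose and 4 fell, beside 19.7% and 18.5% of all genes, with a median of -0.42. In wild type none rose and 18 fell, beside 19.3% and 14.2% of all genes, with a median of -1.78. Cdh1, which encodes E-cadherin, fell from 205 to 33.3 FPKM in the Eed KO pair and from 197 to 13.5 in wild type, and Epcam from 91.3 to 36.5 against 107 to 11. Esrp1, an epithelial splicing factor, was at 22.8 to 15.3 FPKM against 27.9 to 2.41, and the keratin Krt18 at 55.9 to 92.2 against 77.6 to 28.2. The desmosome gene Dsp rose from 6.05 to 14.7 FPKM while it fell from 14 to 4.5 in wild type.

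Of 10 expressed extraembryonic endoderm genes 5 rose and 1 fell, against 4 and 1 in wild type, with Plat from 2.74 to 36.3 FPKM and Dab2 from 4.13 to 32.4. Of 6 expressed serum protein and apolipoprotein genes, which visceral endoderm and liver secrete, 1 rose, Rbp4 from 5.28 to 16 FPKM, and 3 fell. Of the other listed genes 11 were not expressed and 1 had no row under its symbol. Gut endoderm genes rose for 1 of 8, Prox1 from 0.365 to 2.03 FPKM, and fell for 3. Trophoblast genes rose for 3 of 15 and fell for 6, beside 19.7% and 18.5% of all genes. Gata3 rose from 1.85 to 19 FPKM, while the homeobox genes Rhox6 and Rhox9 fell from 31.3 to 0.405 and from 23.4 to 0.465, where wild type moved from 4.14 to 6.06 and from 3.91 to 4.33.

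Germ line genes fell for 13 of 18 expressed members, against 7 in wild type. Mael, a gene of the piRNA pathway, fell from 15.7 to 0.368 FPKM, Ddx4, the vasa helicase, from 6.76 to below 0.001, Dazl, a germ cell RNA-binding protein gene, from 5.35 to 0.0673 and Piwil2 from 6.75 to 0.201. In wild-type ES cells these genes were at 7.97, 6.47, 2.28 and 3.03 FPKM. The values of Ddx4 are those of 1 of its 2 transcripts. With ES wild type as the starting library the median of the list was -0.89 in place of -1.28.

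Chromatin lists moved apart, with medians of -0.71 for PRC2, 0.45 for PRC1 and -1.49 for DNA methylation and Tet genes. The median was -0.24 for enzymes and readers of lysine 27 and lysine 36 methylation. Over all genes 19.7% rose and 18.5% fell. Of 12 PRC2 genes 5 fell and 1 rose. The accessory genes Mtf2 and Epop, both abundant in ES cells, fell from 38.7 to 1.36 and from 175 to 10.3 FPKM, Jarid2 from 75.3 to 21.4 and Suz12, a core subunit, from 78.7 to 27, while the catalytic subunit gene Ezh2 was at 67.1 to 38.3 FPKM and Phf1 rose from 3.05 to 10.9. Mtf2 and Epop also fell in wild type, with differences of -4.10 and -3.63 against -4.07 and -3.96. Of 20 PRC1 genes 6 rose and 3 fell, with Cbx8 from 2.84 to 11.1 FPKM and Cbx7 and Phc1, the members typical of ES cells, from 62.1 to 10.9 and from 48.4 to 6.03. Of 11 DNA methylation and Tet genes 7 fell, including Tet1 from 55 to 2.91 FPKM, the hemimethylation reader Uhrf1 from 49.6 to 7.92 and Zfp57, which protects imprints, from 49.2 to 6.43. The fall of Dnmt3a, also among the 7, is that of 1 transcript, from 34.5 to 12.2 FPKM, while another rose from 1.33 to 11. Tet3 rose from 4.38 to 18.3 FPKM. Among 14 enzymes and readers of lysine 27 and lysine 36 methylation 1 rose and 2 fell. The demethylase Kdm6b rose from 9.35 to 22.3 FPKM, Nsd1 fell from 26.3 to 11.9 along with the Y-linked Uty, and Setd2 was at 18.1 to 14.9.

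Cell cycle genes fell for 21 of 30, against 14 in wild type, with medians of -1.27 and -0.94. Under equal FPKM totals the Eed KO median was -1.0, just short of the size rule. Mybl2, a transcription factor of dividing ES cells, fell from 119.7 to 6.36 FPKM, the replication helicase gene Mcm5 from 195 to 30.7, Ccne1, the S phase cyclin, from 93.5 to 20.5 and Pcna from 254 to 88.9. The proliferation marker Mki67 was at 37.4 to 32.6 FPKM and Top2a at 134 to 102, both within the size rule. Ccnd2 rose from 10.5 to 125 FPKM and Ccnd3 from 70.1 to 145. Of 8 CDK inhibitor genes 4 rose, namely Cdkn1c from 26.7 to 173 FPKM, Cdkn2c from 0.74 to 9.89, and the neighbouring Polycomb targets Cdkn2a and Cdkn2b from 42.8 to 112 and from 3.82 to 12.4. In wild type Cdkn2a and Cdkn2b stayed within the size rule, at 14.4 to 16.1 and 4.37 to 5.38 FPKM.

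Targets of p53 were examined because Trp53 itself was near 0 in the EB library. Of 20 genes 5 rose and 3 fell, beside 19.7% and 18.5% of all genes. Their median was -0.18, and -1.48 with ES wild type as the starting library. Their summed level was 650.3 FPKM in wild-type ES cells, 265 in the ES library labelled Eed KO and 199 in its EBs. Trp53 itself, summed over its 2 transcripts, was at 284 FPKM in wild-type ES cells. It was at 76.2 in the ES library labelled Eed KO and at 75.1 in the E14 control ES library, so wild-type ES cells were the highest of these. The targets Bbc3 and Phlda3 rose from 2.27 to 5.57 and from 5.21 to 12.1 FPKM, but were at 13.7 and 31 in wild-type ES cells. Cdkn1a, which encodes p21, was at 6.66 to 5.32 FPKM in the Eed KO pair and rose from 19 to 81 in wild type. Gtse1 fell from 20.6 to 2.98 FPKM, Bax from 103 to 19.9 and Aen from 20.1 to 3.64, and Plk2 and Fas rose from 2.71 to 31 and from 0.234 to 8.64. The part of Trp53 in these values was not tested.

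MHC class I genes rose for 8 of 11, with a median of 1.58, against 2 of 11 and a median of -0.02 in wild type. B2m, the light chain, went from 23.9 to 242 FPKM, against 21.9 to 69.9 in wild type. The heavy chains H2-K1 and H2-D1 rose from 26.9 to 82.4 and from 13.1 to 49.8 FPKM, where wild type moved from 25.7 to 25.4 and from 14.2 to 17.2, and the peptide transporter genes Tap1 and Tap2 rose from 1.29 to 12.7 and from 1.35 to 13. The immunoproteasome gene Psmb10 fell from 26.7 to 3.76 FPKM. Wild-type ES cells started higher for Tap1, Tap2 and Psmb8, at 3.65, 4.18 and 8.7 FPKM against 1.29, 1.35 and 1.38. With ES wild type as the starting library the median of the list was 0.96. Near-identical class I genes share reads, so the division between H2 genes is uncertain. H2-Q8, among the 5 largest gaps between the pairs, was at below 0.001 to 18.4 FPKM in the Eed KO pair and 1.12 to below 0.001 in wild type.

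Interferon response genes rose for 5 of 17 and fell for 3, beside 19.7% and 18.5% of all genes, with a median of 0.83. In wild type none rose and 9 fell, with a median of -1.22. Usp18 rose from 0.212 to 7.18 FPKM and Ifit1 from 0.22 to 4.25, both induced by type I interferon. Isg15, an interferon-induced ubiquitin-like protein, rose from 1.03 to 7.21 FPKM while it fell from 9.62 to 2.54 in wild type, and its difference was -0.37 with ES wild type as the starting library. The membrane protein gene Ifitm1, high in ES cells, fell from 136 to 17.7 FPKM. Macrophage markers, given above, stayed near 0 in both libraries of the Eed KO pair. Among secreted immune genes the chemokines Cxcl12 and Cxcl14 rose from 1.91 to 86 and from 3.54 to 110.2 FPKM, with wild type at 0.936 to 19.6 and 0.858 to 2.77.

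Glycolysis genes fell for 11 of 17, with a median of -1.45, while 2 rose and 1 fell in wild type, with a median of -0.49. Hk2, a hexokinase gene, fell from 97.2 to 16.8 FPKM, the pyruvate kinase gene Pkm from 1345 to 337, Pfkp from 62.1 to 14.3 and the glucose transporter gene Slc2a3 from 436 to 109.6. In wild type these genes went from 50.1 to 24.7, from 1152 to 566, from 34.7 to 22 and from 232 to 124 FPKM. Gpi1 was at 173 to 163 FPKM in the Eed KO pair and rose from 159 to 341 in wild type. Of 13 hypoxia response genes 5 rose in the Eed KO pair and 11 in wild type, and the Eed KO median of 0.91 was 1.18 with ES wild type as the starting library. Vegfa, P4ha1 and P4ha2 rose in both, from 3.02 to 20.4, from 13.8 to 85.1 and from 5.16 to 45.5 FPKM in the Eed KO pair, while Bnip3 was at 70.7 to 64.1 against 35.2 to 136 in wild type and Ankrd37 fell from 19.3 to 8.11 against a rise from 6.68 to 14.9.

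Other metabolic lists moved in both directions. Tdh, the threonine dehydrogenase of mouse ES cells, fell from 106 to 0.0914 FPKM, the glycine cleavage gene Gldc from 60.1 to 3.96 and Shmt1 from 63.8 to 9.11, and 9 of 13 genes of threonine, serine and one-carbon metabolism fell in all. Aldh1l2, the mitochondrial folate enzyme, rose from 0.457 to 8.07 FPKM. Cholesterol synthesis genes fell for 7 of 13, against 2 in wild type. Fdps, the farnesyl diphosphate synthase gene, fell from 182 to 45.9 FPKM. The median of that list, -1.01, was -0.83, -0.96 and -0.76 when libraries were rescaled to equal upper quartiles, by median of ratios and to equal totals, and -0.25 with ES wild type as the starting library. Nuclear genes of the respiratory chain fell for 4 of 18, beside 18.5% of all genes and none of the list in wild type, with Cyc1 from 206 to 56.1 and Cox5a from 328 to 118 FPKM. Lysosome genes rose for 6 of 15 and fell for 1, with a median of 0.87, or 1.29 with ES wild type as the starting library, as for Lamp2 from 6.08 to 78.2 and the cathepsin gene Ctsh from 0.545 to 9.97 FPKM. Heat shock genes rose for 3 of 16 and fell for 5, beside 19.7% and 18.5% of all genes. Hsp90aa1 fell from 1044 to 146 FPKM and the inducible Hspa1a rose from 2.47 to 10.4.

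Among reference genes commonly taken as constant, 2 of 16 rose and 4 fell, beside 19.7% and 18.5% of all genes. Their median was -0.56, against -0.29 in wild type. Eef1a1 and Rpl13a were at 4769.9 to 5095 and 1170.2 to 1033 FPKM, whereas Hprt fell from 87.7 to 19.2, Ppia from 2694 to 915 and Gapdh, a glycolysis gene, from 2256 to 1122. A shift common to all genes and a change of these genes cannot be told apart in FPKM.

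Imprinted genes, expressed from 1 parental allele, rose for 14 of 23 and fell for 3, with a median of 1.88 against 1.48 in wild type. Apart from Dlk1, the paternally expressed genes Igf2, Plagl1 and Peg3 rose from 25.9 to 1003, from 7.7 to 373 and from 7.05 to 220.3 FPKM, and wild-type EBs reached 127, 198 and 205. The maternally expressed Cdkn1c rose as given above and Phlda2 fell from 78.1 to 26.3 FPKM. Grb10, a growth inhibitor gene, rose from 27.6 to 74.8 FPKM while it fell from 32.3 to 9.95 in wild type. Meg3, the maternal non-coding RNA of the Dlk1 locus, was at 0.447 to 0.801 FPKM, within the size rule. Rtl1, from the paternal allele of that locus, rose from 0.0407 to 1.97 FPKM. In wild-type ES cells Rian, another RNA of the locus, was at 96.2 FPKM, against 0.351 in the ES library labelled Eed KO and 4.02 in its EBs. Its difference was 1.89 from the Eed KO start and -4.28 from the wild-type start.

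Set side by side over all expressed genes, 1714 rose in both pairs, which is 58.8% of those that rose in the Eed KO pair and 60.0% of those that rose in wild type. A further 1509 fell in both, or 55.1% and 71.9%. Another 26 rose in the Eed KO pair and fell in wild type, and 56 did the reverse, of which 15 and 41 are named genes. Across the 13441 named genes the differences of the pairs had a Pearson r of 0.77 and a Spearman rho of 0.78, as a description across genes that share libraries within each pair. Neuronal genes described above were among those called in opposite directions. The largest gaps toward the Eed KO pair, besides H2-Q8, were those of Col1a2, Col8a2 and Tac2, a neuropeptide gene at 0.204 to 42.3 FPKM against 0.0629 to 1.47 in wild type, and of Rps27, a ribosomal protein gene with many near-identical copies, which of the 4 libraries only ES wild type lists above 0, at 51.2 FPKM. Toward wild type they were Fabp7, Tubb3, Dppa5a, Igfbpl1, at 2.59 to 1.34 against 1.63 to 126 FPKM, and Rtn1, a neuronal reticulon gene at 8.64 to 1.06 against 3.32 to 53.7.

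**Figure D5:**
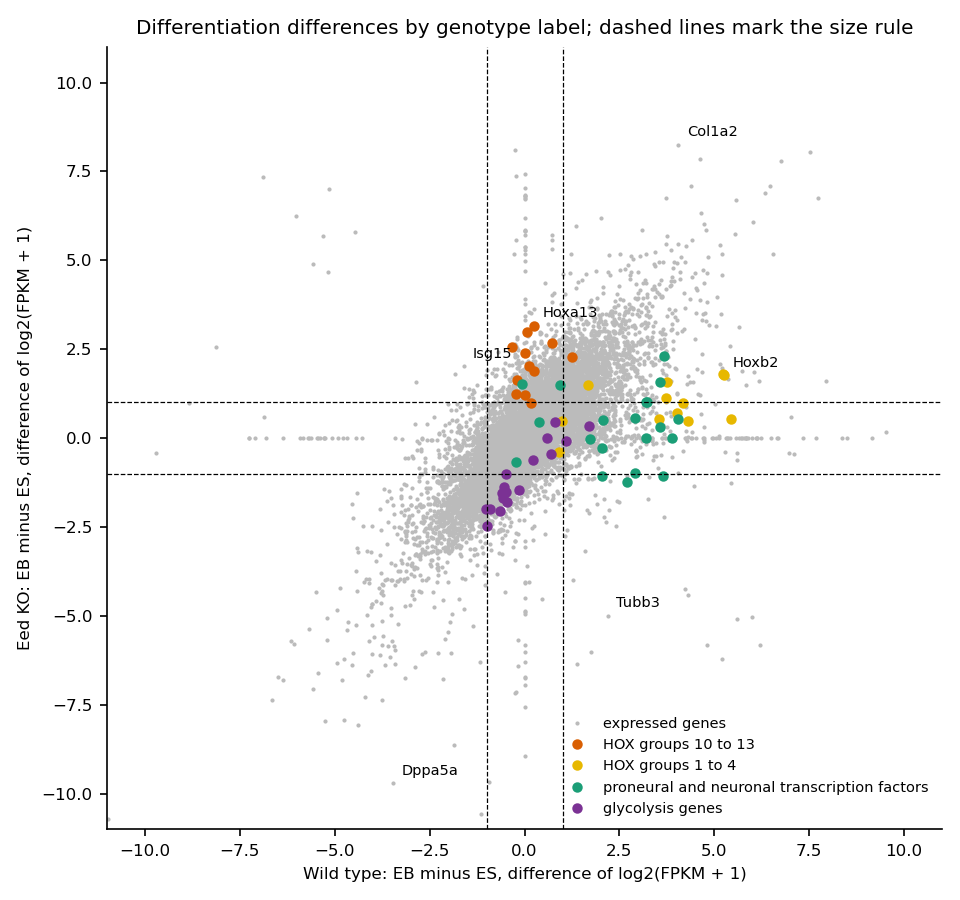
Difference of log2(FPKM + 1), EBs minus ES cells, in the wild-type pair (horizontal) and in the Eed KO pair (vertical) for each expressed gene, from 1 library per stage and genotype, with dashed lines at the size rule of 1. HOX groups 10 to 13 lie high near the middle, with medians of 2.15 (Eed KO) and 0.10 (wild type), and proneural factors lie to the right near 0 on the vertical axis, with medians of 0.39 and 2.91.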

How the data were processed

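RNA from 6 samples was sequenced, 1 library per group, from Trizol RNA with the TruSeq RNA version 2 kit, per the labels' protocols. As the kit does not mark strand, a gene and its antisense partner share their reads. Values were deposited as FPKM per RefSeq transcript. The authors used TopHat and Cuffdiff on build mm9, per the submitters' processing notes. Neither versions and options nor the annotation release are given in the sources used here. Cuffdiff divides reads between isoforms and between near-identical copies, so single transcripts and such copies are uncertain.

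Accessions were matched to symbols through a RefSeq table of GRCm38.p6, used for names only (29300 of 29851 transcripts matched). A gene is represented by its transcript of highest mean FPKM. Differences of log2(FPKM + 1) were computed with pandas 2.3.3 and numpy 2.4.6 in Python 3.11.15, and figures with matplotlib 3.10.9. The functions were tested on simulated data. Relative depth came from the steps between low FPKM values of long transcripts. Promoters came from RefSeq's list for GRCm38.p6, which has entries for 11204 of the 14772 expressed genes. The table gives 300 bases each, and the first entry per gene was used.

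The comparison, the size rule, the 61 gene lists and the alternatives were chosen with earlier results of these data known. The naming rule took Eed, Ezh2, Suz12, Trp53, Pou5f1, Nanog, Sox2, Y-linked and housekeeping genes, the 15 largest changes each way among named genes with at least 5 FPKM in the higher library, at most 5 genes of each list, those with the largest change, and the 5 largest gaps each way between the pairs. Other list members in the text were chosen after their values were seen. Some list members enter the counts and medians but are not reported here by name. An exact 0 is given as listed at 0 and smaller values than 0.001 as below 0.001. The 12 ChIP samples are not analysed here.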

Additional observations from a re-analysis of the deposited data

Results flagged for a closer look

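The genes below passed the size rule in opposite directions in the Eed KO and wild-type pairs, with 1 library per stage and genotype. The difference between the pairs was not tested. Each value is EB minus ES on the log2(FPKM + 1) scale, for Eed KO and then wild type.

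Among 15 such list members with at least 5 FPKM in 1 library and more than 0.001 in each, 11 fell in the Eed KO pair and rose in wild type. Most are neural: Tubb3 at -5.0 and 2.20, Rtn1 at -2.23 and 3.66, Stmn3, a tubulin-binding protein gene of neurons, at -1.73 and 3.24, Elavl3, a neuronal RNA-binding protein gene, at -1.72 and 2.08, Neurog1 at -1.25 and 2.69, Atoh1 at -1.07 and 3.64, and Pou4f1 at -1.06 and 2.04. The Notch ligands Dll1 and Dll3 were at -1.16 and 1.78 and at -1.25 and 1.37. Fgf15 was at -2.03 and 1.64, and the hypoxia gene Ankrd37 at -1.16 and 1.05.

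The other 4 rose in the Eed KO pair and fell in wild type. Isg15 was at 2.02 and -1.59, Tpm1, a tropomyosin gene, at 1.78 and -1.02, Grb10 at 1.40 and -1.60, and Dsp at 1.16 and -1.45.

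With ES wild type as the starting library the difference of EBs labelled Eed KO was -0.37 for Isg15, -0.45 for Tpm1 and 0.25 for Ankrd37, each with the opposite sign. It was within the size rule for Dsp, Atoh1 and Neurog1, at 0.062, -0.25 and -0.025, and the other 9 stayed past the rule in the direction given.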

How the results depend on the processing

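No paired analysis was possible because each group has 1 library. For the same reason no replicate could be left out, and every call is a matter of size alone. With a size rule of 2 the Eed KO pair had 956 genes higher and 701 lower, and wild type 936 and 495, in place of 2913, 2738, 2855 and 2100. Counts stayed within 1.5 times of these under the other settings, for example 3396 higher and 2234 lower with equal upper quartiles, where the median of all genes was 0.11, and 3729 and 3389 with a pseudocount of 0.1. ES wild type as the start gave 2900 and 3025. Leaving out chromosomes 3, 6, 11 and Y gave 2328 and 2250 of 12121 genes. These chromosomes were chosen from earlier results, and chromosome 12 was kept. Without them the median was 0.62 for cartilage and bone genes and -1.12 for trophoblast genes, in place of 1.64 and -0.53. It was -1.16 for primed epiblast genes and 1.46 for contractile genes, in place of -0.64 and 0.88. Leaving out small RNA genes and unnamed loci, added after seeing the data, gave 2725 and 2459 of 13441. Of 30 lists with a median of at least 1 in size, 23 kept it under every setting run. With an FPKM of 1 required in 1 of the 2 libraries compared, 4 list medians came to pass the size rule. They were 1.62 for contractile, 1.19 for neural progenitor, 1.06 for HOX groups 1 to 4 and 1.44 for complement genes. The median of the serum protein list was -1.30 and turned to 0.14 with an FPKM minimum of 5, and that of the glial list was 1.62 and turned to -0.00603 with no filter. With ES wild type as the start 9 list medians came to pass the size rule and 3 no longer did. Those not given with their lists were 1.32 for primitive streak, 1.38 for extraembryonic endoderm, 1.13 for adipocyte and 1.44 for complement genes, in place of 0.91, 0.85, 0.75 and 0.77. Calls ended for 50 of the genes examined singly and were gained for 91, and these changed sign: Ankrd37 0.25, Bbc3 -1.16, En2 0.59, Isg15 -0.37, Jag2 -0.053, Pax6 -0.13, Phlda3 -1.29, Psmb8 -0.12, Rian -4.28, Smc1b 0.47, Stag3 0.29, Tnnt3 0.46 and Tpm1 -0.45. The cause was not tested. Depth was lowest in the EB library labelled Eed KO, so low levels there are the least precise.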

Other observations

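Grouping expressed genes by the stem of their symbols, chosen after the lists above, gave 117 families with at least 12 members. Proteasome regulatory subunit genes (Psmd) had the lowest median in the Eed KO pair, -1.35 with 10 of 14 lower, against -0.63 and 1 lower in wild type. Genes of the integrator complex (Ints) fell for 9 of 15, against 1 of 15, RNA polymerase subunit genes (Polr) for 18 of 27, against 9, and mitochondrial ribosomal protein genes of the large subunit (Mrpl) for 22 of 49, against 4. Over all genes 18.5% fell in the Eed KO pair and 14.2% in wild type. The medians of Ints, Polr and Mrpl were -1.08, -1.28 and -0.93 in the Eed KO pair and -0.63, -0.92 and -0.46 in wild type. They lie near the size rule, so the counts differ more than the medians. At the other end collagen genes (Col) rose for 28 of 33 and genes of the Adamts proteases for 14 of 17. Clustered protocadherin genes (Pcdhb) rose for 13 of 17, against 16 in wild type. Phosphodiesterase genes (Pde) had a median of 1.15, against 0.35 in wild type.

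Of 934 genes with several transcripts at 5 FPKM or more, 43 had transcripts that passed the size rule in opposite directions in the Eed KO pair. For Dnmt3a, the de novo DNA methyltransferase, the transcript NM_007872 went from 1.33 to 11 FPKM and NM_153743 from 34.5 to 12.2. In wild type NM_007872 went from 0.36 to 7.64 FPKM while NM_153743 was at 17.2 and 17.3. For Rbpj, the transcription factor of Notch signalling, NM_001080927 went from 6.9 to 29.3 FPKM and NM_001080928 from 81.2 to 4.37. Whether reads were divided correctly between these transcripts was not tested.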
